A study of Homo sapiens and Mus musculus with 5 samples.

Results

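Of the 347 single-nucleotide polymorphisms (SNPs) carried by the reporter library, 4 lay on chromosome 7 between positions 1800000 and 2250000, a window that holds MAD1L1, and were chosen by that position alone. The tables name them by chromosome and position, as 7_1977810, 7_1981360, 7_1990232 and 7_2186527. SNPs named by rs number carry no position there and could not be assigned to the window. Together the 4 SNPs were present in the tables as 11 of 984 fragments and 15 of 1625 fragment alleles. A fragment is named here by how many bases precede and follow its SNP (50/150, 100/100 or 150/50). Alleles are called 1 and 2 as the tables number them, and which base each number stands for is not stated there.

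MAD1L1 encodes MAD1, a coiled-coil protein of the spindle assembly checkpoint. MAD1 sits at kinetochores that are not yet attached to the spindle and recruits MAD2 there, which delays the separation of chromosomes. Variants in introns of the gene have been associated with schizophrenia and bipolar disorder, so a reporter assay of this region asks whether the DNA around such a SNP can change transcription and whether its alleles do so differently.

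The assay was a modified STARR-seq, in which a candidate fragment is placed inside a reporter transcript, so that a fragment able to raise transcription raises its own share of the RNA. The same plasmid library was transfected into PC-12 (rat pheochromocytoma cells, which the labels list under mouse), HEK-293T (from human embryonic kidney), and the neuroblastoma lines SH-SY5Y (human) and Neuro-2a (mouse). No other agent was named, and no untransfected or empty-reporter group was used here. Each line had 3 RNA libraries, except PC-12, for which RNA replicates 1 and 3 were used. All 4 lines were set against the same 3 plasmid libraries sequenced before transfection (the input), so the lines share their control. The DNA is human in every line, and in Neuro-2a and PC-12 it was read by rodent cells, outside its chromosome. The tables hold reporter reads and no genes of the cells, so the identity of the lines could not be checked against their markers.

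In the RefSeq annotation of GRCh38.p14, MAD1L1 spans chromosome 7 from 1815795 to 2232945. The build of the library's positions is not given in the sources here, and if it is GRCh38, all 4 SNPs lie inside the gene. SNP 7_1981360 would also lie inside LOC124901573, a long non-coding RNA gene from 1980509 to 1986339. Whether the SNPs fall in exons or introns was not determined here. The first 3 positions formed a cluster, with 3550 bases between 7_1977810 and 7_1981360 and 8872 bases between 7_1981360 and 7_1990232. The fourth, 7_2186527, lay 196295 bases farther on, 46418 bases inside the higher end of the gene. Fragments of different SNPs did not overlap, whereas 2 placements of one SNP shared 100 or 150 bases of flanking sequence.

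Coverage of the placements in the tables was uneven among the 4 SNPs. An allele that they do not list may still have been in the plasmid library. SNP 7_1977810 was present only as allele 2 in the 50/150 fragment and as allele 1 in the 100/100 fragment, so allele and placement cannot be told apart there. For 7_1981360 the tables listed allele 1 at 50/150, allele 2 at 100/100 and both alleles at 150/50. SNP 7_1990232 had both alleles at 50/150 and at 150/50, and allele 1 at 100/100. At 7_2186527 allele 2 was present in all 3 placements and allele 1 at 100/100 only. All 15 alleles passed the minimum mean count of 10 in Neuro-2a, HEK-293T and PC-12. In SH-SY5Y, allele 1 of 7_2186527 at 100/100 was listed at 0 throughout and was not tested, which left 14. The same input libraries gave it a mean of 5914 counts in the tables of the other lines. The 0 listed for SH-SY5Y is thus not a measured absence from the input, and its RNA there is unknown.

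The 15 alleles were well represented in the plasmid input, with mean counts from 954 to 16504 per library and a median of 5914. The median over all alleles of the Neuro-2a table was 3832. RNA libraries totalled 5875437 to 10201521 counts and input libraries 6380682 to 8421333. Input replicates correlated at r of at least 0.983 across alleles (log counts above 0), and RNA replicates of one line at 0.479 to 0.875. Among RNA libraries, replicate 2 of HEK-293T listed 256 of 1561 alleles at 0, against 16 and 25 in the other two, and replicate 3 of PC-12 listed 159 of 1614, against 24 in replicate 1. In Neuro-2a and SH-SY5Y, RNA replicate 1 correlated less well with replicates 2 and 3 (r of 0.558 and 0.549, and of 0.680 and 0.652) than those 2 did with each other (0.650 and 0.875). HEK-293T differed: there replicate 2 correlated less well with replicates 1 and 3 (0.479 and 0.622) than those did with each other (0.714). Only 3 of the 162 RNA values of the MAD1L1 alleles were 0, and 1 lay between 1 and 99.

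Activity was measured as the log2 ratio of an allele's normalised RNA count to its mean normalised input count, so 0 means an RNA share equal to the input share. The 7_1977810 allele 2 fragment at 50/150 was the one MAD1L1 allele with a call in every line: it was above the input in 11 of 11 RNA libraries and passed the test in all 4 lines. The call was lost in each line when any 1 of the 3 input libraries was left out, as were all or nearly all calls of the whole library. The RNA of this fragment exceeded its input 3.65-fold in Neuro-2a, 3.24-fold in SH-SY5Y, 3.16-fold in PC-12 and 2.53-fold in HEK-293T. The 7_1981360 allele 1 fragment and the 7_2186527 allele 2 fragment, also at 50/150, were above the input in 11 of 11 RNA libraries too, and passed the test in 2 lines and 1 line respectively. The opposite extreme was 7_2186527 allele 1 at 100/100, which was below the input in every library in which it was tested and passed the test in Neuro-2a.

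The input libraries gave the 7_1977810 allele 2 fragment at 50/150 a mean of 10887 counts. It received 23583, 35226 and 29263 RNA counts in the 3 Neuro-2a libraries, which correspond to log2 ratios of 1.55, 2.04 and 1.97. The SH-SY5Y libraries gave 37263, 28639 and 34403 counts (1.39, 1.69 and 1.96). HEK-293T gave 22838, 23210 and 26229 counts (1.41, 1.11 and 1.47), and PC-12 gave 26856 and 33730 (1.39 and 1.89). Every one of these libraries was at least 1.11 above the input on the log2 scale, and the HEK-293T values were the lowest group while overlapping those of SH-SY5Y and PC-12. Fitted activity was 1.87 ± 0.16 (SE, 3 RNA and 3 input libraries) in Neuro-2a, with a Benjamini-Hochberg adjusted p of 0.0096 by the quasi-likelihood test of edgeR. By the same edgeR test it was 1.70 ± 0.17 in SH-SY5Y (adjusted p = 0.0062) and 1.34 ± 0.14 in HEK-293T (adjusted p = 0.0242). PC-12, with 2 RNA libraries, gave 1.66 ± 0.16 (edgeR adjusted p = 0.0118). The fit gives RNA and input libraries of an allele a shared spread, although input replicates were far more alike. Each SE and p of these tests thus draws on the input too and is not the spread of RNA replicates alone. The 2 PC-12 log2 ratios had an SD of 0.35.

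Of the 1436 alleles present in all 4 tables, 10 passed the test above the input in all 4 lines, or 0.696%, and this fragment was 1 of them. Of the 14 MAD1L1 alleles in all tables, 3 were above the input in every one of the 11 RNA libraries, against 7.87% of all alleles. The fragment was not among the very strongest of the library: ranked by fitted activity it was number 101 of 1471 (Neuro-2a), 119 of 1614 (PC-12), 128 of 1562 (SH-SY5Y) and 166 of 1561 (HEK-293T). Its standard error was small beside those of most fragments (0.16 in Neuro-2a, against a median of 0.44 over all alleles).

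The other fragment of 7_1977810, allele 1 at 100/100, had a near-identical input of 10618 counts and lower activity. Its RNA counts were 14506, 13943 and 5234 in Neuro-2a, with log2 ratios of 0.89, 0.74 and -0.48. PC-12 gave ratios of 1.21 and 0.64, SH-SY5Y of 1.08, 0.18 and 0.52, and HEK-293T of 0.86, 0.89 and -0.05. In all, 9 of 11 libraries were above the input, and those below it were replicate 3 of Neuro-2a and of HEK-293T. Its fitted activity was 0.95 ± 0.19 in PC-12, 0.64 ± 0.24 for SH-SY5Y, 0.63 ± 0.27 for HEK-293T and 0.50 ± 0.36 for Neuro-2a, and the edgeR adjusted p ranged from 0.0552 in PC-12 to 0.457 in Neuro-2a. Within each RNA library the 50/150 allele 2 fragment was above the 100/100 allele 1 fragment, by 0.19 (PC-12 replicate 1) to 2.45 (Neuro-2a replicate 3) on the log2 scale. That difference was not tested, because the fragments differ in both allele and placement.

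The 7_1981360 allele 1 fragment at 50/150 lay 3550 bases away from 7_1977810 and had an input mean of 3063 counts. Its RNA counts in Neuro-2a were 4456, 6075 and 5193, which are log2 ratios of 0.98, 1.33 and 1.30. In SH-SY5Y the ratios were 0.56, 1.23 and 0.65, in HEK-293T 0.92, 0.35 and 0.62, and in PC-12 1.04 and 0.86. All 11 values were positive, and the HEK-293T values were the lowest without being separate from those of SH-SY5Y and PC-12. Activity passed the edgeR test in Neuro-2a (1.21 ± 0.19, 2.32-fold, adjusted p = 0.0278) and in PC-12 (0.95 ± 0.12, 1.93-fold, adjusted p = 0.0208). It did not pass in SH-SY5Y (0.84 ± 0.24, edgeR adjusted p = 0.0649) or in HEK-293T (0.65 ± 0.24, edgeR adjusted p = 0.182).

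At the distant SNP, 7_2186527 allele 2 at 50/150 had an input mean of 8820 counts. RNA counts were 8354, 12113 and 7549 in Neuro-2a (log2 ratios of 0.36, 0.80 and 0.32) and 16425, 12910 and 13756 in SH-SY5Y (0.51, 0.85 and 0.94). They were 11060, 24785 and 14023 in HEK-293T (0.67, 1.51 and 0.88) and 10813 and 14923 in PC-12 (0.39 and 1.02). Here the highest single value came from HEK-293T, the line with the lowest fitted values for the 50/150 fragments of 7_1977810 and 7_1981360. Only SH-SY5Y passed the edgeR test (0.78 ± 0.15, 1.71-fold, adjusted p = 0.0298), although the fitted value was larger in HEK-293T (1.07 ± 0.24, adjusted p = 0.0877) and close to that of SH-SY5Y in PC-12 (0.74 ± 0.21, adjusted p = 0.107). Neuro-2a gave 0.51 ± 0.18 (edgeR adjusted p = 0.148).

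The 100/100 fragment of 7_2186527 carried the widest contrast in the window. Its allele 1 was abundant in the input, with a mean of 5914 counts, and scarce in RNA. Neuro-2a gave 508, 1059 and 520 counts, or log2 ratios of -3.10, -2.14 and -2.97. HEK-293T gave 54, 0 and 613 counts (-6.43 and -3.06 for those above 0), and PC-12 gave 0 and 378 (-3.71 for replicate 3). A count of 3 in the libraries at 0 would have given -10.92 and -10.85. All 8 libraries were thus below the input, by at least 2.14 on the log2 scale. In Neuro-2a the fitted activity fell by 2.67 ± 0.35, or 6.36-fold, and passed the edgeR test (adjusted p = 0.0225). The fitted values of -4.51 ± 2.03 in HEK-293T and -4.71 ± 2.40 in PC-12 rest on libraries at 0 and are no bound (edgeR adjusted p = 0.251 and 0.260). Counted from the lowest activity, the allele was number 13 of 1614 in PC-12, 15 of 1561 in HEK-293T and 21 of 1471 in Neuro-2a.

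Allele 2 of the same fragment was rare in the input, with a mean of 954 counts, the fewest of any MAD1L1 allele. It gave 509, 2338 and 3499 RNA counts in Neuro-2a, with log2 ratios of -0.47, 1.63 and 2.41. SH-SY5Y gave 798, 2259 and 1517 counts (-0.64, 1.54 and 0.96), HEK-293T 688, 6301 and 2731 (-0.13, 2.74 and 1.72), and PC-12 703 and 1471 (-0.35 and 0.88). Replicate 1 was below the input in every line and all other libraries were above it. With this spread no line passed the edgeR test, although HEK-293T had its highest fitted activity of the window here (1.86 ± 0.72, adjusted p = 0.200). Neuro-2a had a fitted value of 1.61 ± 0.73, SH-SY5Y of 0.87 ± 0.56 and PC-12 of 0.39 ± 0.43 (edgeR adjusted p = 0.238, 0.322 and 0.581).

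The fragments of 7_1990232 had no call, and their 100/100 and 150/50 values spread widely on both sides of the input. Allele 2 at 50/150 was above it in 10 of 11 libraries, from -0.15 to 1.02 on the log2 scale with a median of 0.37, and allele 1 of the same fragment was above it in 6, from -0.35 to 0.58. At 100/100 allele 1 ranged from -1.62 to 0.78. Allele 1 at 150/50 ranged from -1.15 to 1.19 and was, at -0.21 ± 0.24, the lowest fitted MAD1L1 value in SH-SY5Y (edgeR adjusted p = 0.572). Allele 2 at 150/50 spread most of all alleles of this SNP, from -1.82 in PC-12 replicate 3 to 1.79 in Neuro-2a replicate 1, and had 0 counts in HEK-293T replicate 2. No allele of 7_1990232 passed the edgeR test for activity in any line, although the 50/150 allele 2 fragment had unadjusted p-values of 0.0213, 0.0265 and 0.0332 in SH-SY5Y, HEK-293T and PC-12. An unadjusted edgeR p under 0.05 was common in these lines: 536 of 1562, 360 of 1561 and 507 of 1614 alleles had it, in that order.

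The remaining fragments of 7_1981360 and 7_2186527 also had values on both sides of the input. Allele 2 of 7_1981360 at 100/100 ranged from -0.86 to 0.64 over the 11 libraries. The 150/50 fragment of 7_1981360 ranged from -0.66 to 0.91 for allele 1 and from -1.12 to 0.74 for allele 2. Allele 2 of 7_2186527 at 150/50 ranged from -1.56 to 0.75. None of these 4 passed the edgeR test for activity in any line.

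Counted over the window, 2 of 15 MAD1L1 alleles passed above the input and 1 below it in Neuro-2a, where 4.08% of all alleles passed above and 1.7% below. In SH-SY5Y 2 of 14 passed above and 0 below, against 7.43% and 5.51% of all alleles. HEK-293T had 1 of 15 above and 0 below (1.35% and 1.02% of all), and PC-12 had 2 of 15 above and 0 below (5.64% and 4.77% of all). Fitted activity was above 0 for 12 of 15 MAD1L1 alleles in Neuro-2a (50.2% of all alleles), 13 of 14 in SH-SY5Y (49.2%), 12 of 15 in PC-12 (49.3%) and 9 of 15 in HEK-293T (44.9%). The median over the MAD1L1 alleles was 0.34, 0.22, 0.43 and 0.28 in the same order of lines, against 0.01, -0.01, -0.01 and -0.11 over all alleles. These counts are small, and fragments of one SNP share sequence: 100 or 150 flanking bases between placements, and all but the SNP between alleles of one placement.

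The calls rested on having 3 input libraries, over the whole library as for MAD1L1. Without any 1 of them no MAD1L1 allele passed in any line. Over all alleles 0% then passed in Neuro-2a, HEK-293T and PC-12, and 0.192% in SH-SY5Y. The fitted activity of the 7_1977810 allele 2 fragment stayed between 1.33 and 1.87 (edgeR adjusted p between 0.0738 and 0.224). Without RNA replicate 1 the number called, in either direction, rose to 9 for SH-SY5Y, 5 for Neuro-2a and 5 for HEK-293T, where 54.9%, 41.3% and 31.8% of all alleles were then called. Without replicate 2 or 3 it was 3 or 2 for SH-SY5Y (12.4% or 12.8% of all alleles), 3 or 4 for Neuro-2a (8.36% or 10.3%) and 4 or 2 for HEK-293T (10.6% or 1.99%). PC-12, left with 1 RNA library that is assumed to vary like the input, had 15 called without replicate 1 and 14 without replicate 3, where 90.1% and 77.9% of all alleles were called. The 7_1977810 allele 2 fragment was called in every line without each RNA library in turn, by DESeq2 and by limma-voom.

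Whether a SNP's alleles drive different activity could be asked of 4 MAD1L1 fragments (3 in SH-SY5Y), the ones that carried both alleles. No MAD1L1 fragment passed in any line, and few did across the library: 0.187% of 534 fragments were called in Neuro-2a, 0.166% of 601 for SH-SY5Y, 0% of 635 for PC-12 and 0% of 606 for HEK-293T. By edgeR, 1 MAD1L1 fragment in Neuro-2a and 1 in SH-SY5Y had an unadjusted p under 0.05, and 0 in HEK-293T and PC-12. Over all fragments 58 of 534, 81 of 601, 25 of 606 and 46 of 635 had one, in the same order of lines. DESeq2 called 2 MAD1L1 fragments in PC-12 (10.7% of all fragments), 1 in Neuro-2a (12.7%), and 0 in SH-SY5Y (4.49%) and HEK-293T (0.99%). Of all fragments as of these, limma-voom called 0.

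The 100/100 fragment of 7_2186527 had the widest allelic difference in each of the 3 lines that held both alleles. Allele 1 made up 86.5%, 85.8% and 86.0% of the fragment's reads in the input libraries. In the Neuro-2a RNA it made up 508 of 1017 reads in replicate 1, then 31.2% and 12.9%, in HEK-293T 7.28%, 0% and 18.3%, and in PC-12 0% and 20.4%. The exact 95% interval nearest to the input was 46.8% to 53.1%, in Neuro-2a replicate 1. For the counts of 0 the exact 95% interval reached up to 0.0585% in HEK-293T and 0.523% in PC-12. These limits cover counting error only, since PCR reads are not independent molecules. Allele 1 was thus a smaller share of the RNA than of the input in 8 of 8 libraries.

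Relative to the input, allele 2 exceeded allele 1 of this fragment by 2.63, 3.77 and 5.38 on the log2 scale in the Neuro-2a libraries, by 6.30 and 4.79 in HEK-293T replicates 1 and 3, and by 4.59 in PC-12 replicate 3. The direction was the same in all of them, while the size varied widely between replicates of one line. The fitted difference was 3.92 ± 0.85 in Neuro-2a, with an unadjusted p of 0.0050 and an adjusted p of 0.298 by edgeR. It was 7.21 ± 3.07 in HEK-293T and 8.10 ± 3.34 in PC-12 (edgeR adjusted p = 0.677 and 0.590), values that depend on how the counts of 0 are handled. With RNA counts of 0 treated as missing, limma on log counts gave 3.93, 5.54 and 4.59 in the 3 lines. Its adjusted p was 0.0363 in Neuro-2a and 0.0212 in HEK-293T, where limma called 9.36% and 0.99% of all fragments. Neuro-2a had no RNA count of 0 for this fragment, so no value of it was set to missing there. What changed for it was the fit, from edgeR to limma. Setting counts of 0 to missing leaves allele 1 with 2 RNA libraries in HEK-293T and 1 in PC-12, without the libraries in which it was lowest. No p is given for PC-12, where it would assume that the lone library varies like the others. Without RNA replicate 1 of Neuro-2a the edgeR value was 4.58 (adjusted p = 0.0118), with 30.5% of all fragments called. Leaving out HEK-293T RNA replicate 2, the library with 256 alleles at 0, gave 5.53 (edgeR adjusted p = 0.0941).

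The other 3 two-allele fragments showed smaller differences. At 50/150 of 7_1990232, allele 2 exceeded allele 1 by 0.61 ± 0.24 in PC-12, 0.49 ± 0.18 in SH-SY5Y, 0.20 ± 0.53 in Neuro-2a and 0.15 ± 0.17 in HEK-293T on the log2 scale. The edgeR adjusted p was 0.590, 0.355, 0.909 and 0.826 in that order, and the unadjusted p in SH-SY5Y was 0.0406. At 150/50 of the same SNP the difference was -0.53 ± 0.52, 0.18 ± 0.34, 0.38 ± 0.37 and -2.18 ± 2.86, where the HEK-293T value contains the library at 0. At 150/50 of 7_1981360 it was -0.24 ± 0.11, 0.16 ± 0.28, 0.10 ± 0.21 and -0.23 ± 0.38. The sign thus differed between lines for both 150/50 fragments, and allele 2 was the higher in every line for 50/150 of 7_1990232, without passing the edgeR test in any.

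Placement was compared between fragments of the same SNP and the same allele, which gave 9 MAD1L1 pairs in each line. None of the 9 passed the edgeR test in any line, and the share called over all pairs was 4.25% in PC-12, 2.6% in SH-SY5Y, 1.22% in Neuro-2a and 0.337% in HEK-293T. An unadjusted edgeR p under 0.05 was found for 1 pair in Neuro-2a (151 of 1063 over all pairs). In SH-SY5Y (277 of 1193), HEK-293T (146 of 1188) and PC-12 (251 of 1272) 0 MAD1L1 pairs had one. DESeq2 called 1 pair in Neuro-2a and 1 in PC-12, where it called 17.5% and 34.7% of all pairs, and 0 in SH-SY5Y (30.3%) and HEK-293T (15.7%). No MAD1L1 pair was called by limma-voom, which called 1.52% to 6.45% of all pairs.

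Allele 1 of 7_1981360 had a lower fitted activity at 150/50 than at 50/150 in every line, with log2 differences of -1.06 ± 0.35 in Neuro-2a, -0.84 ± 0.44 for SH-SY5Y, -0.68 ± 0.30 for HEK-293T and -0.55 ± 0.30 for PC-12. The edgeR adjusted p was 0.280, 0.312, 0.435 and 0.404. Allele 2 of 7_2186527 had the largest mean difference of any pair, between 150/50 and 100/100, with fitted values of -1.56 ± 1.29, -0.57 ± 0.91, -1.17 ± 0.97 and -0.70 ± 1.25 in the same order of lines (edgeR adjusted p = 0.639, 0.729, 0.662 and 0.716). The libraries behind it went opposite ways. The single differences were 0.94, -1.95 and -3.40 for Neuro-2a, 1.40, -1.41 and -1.50 for SH-SY5Y, 0.81, -2.26 and -1.86 for HEK-293T, and 1.04 and -2.44 for PC-12. Replicate 1 was positive in all 4 lines and every other library negative.

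A like split by replicate number ran through the pairs that compare 150/50 with 50/150, of which there were 4 (allele 1 of 7_1981360, both alleles of 7_1990232 and allele 2 of 7_2186527). In RNA replicates 2 and 3 the 50/150 fragment was the more active in 26 of 27 values, with a median difference of -1.11 for 150/50 over 50/150. In replicate 1 the 150/50 fragment was the more active in 13 of 16 values, with a median of 0.21. Over all pairs of the library, the 50/150 fragment was the higher in 48.4% to 51.0% of pairs in each library of replicates 2 and 3, and in 45.7% to 53.8% in replicate 1. The 4 pairs share libraries and, at 7_1990232, a SNP, so the values are not independent, and the split was chosen after the values were seen and was not tested.

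Without RNA replicate 1, 4 of the 9 pairs passed the edgeR test in Neuro-2a, 4 for SH-SY5Y, 3 for HEK-293T and 8 for PC-12, where 1 RNA library was left. The shares of all pairs called were then 29.5%, 49.4%, 25.3% and 86.3% in that order. For 7_2186527 the value of 150/50 over 100/100 was then -2.68 in Neuro-2a (adjusted p = 0.0361), -1.46 in SH-SY5Y (0.0051) and -2.06 in HEK-293T (0.0182), all by edgeR. Across single placements, the median fitted activity of the 5 alleles at 50/150 was 0.78 in SH-SY5Y, 0.74 in PC-12, 0.65 in HEK-293T and 0.51 in Neuro-2a, and that of the 5 at 150/50 was 0.10, 0.49, -0.12 and 0.26. These sets differ in more than placement. Only the 50/150 set holds 7_1977810 allele 2, and only the 150/50 set holds 7_1981360 allele 2. All alleles of the library had medians between -0.17 and -0.0044 at these 2 placements.

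Differences between the lines were tested on the RNA counts of the 14 MAD1L1 alleles present in all 4 tables. None passed the edgeR F test (adjusted p = 1.00 for each), none had an unadjusted p under 0.05, and DESeq2 and limma-voom called 0 of them. Over all 1436 alleles edgeR called 0%, 40 had an unadjusted p under 0.05, and DESeq2 called 23. For the 7_1977810 allele 2 fragment at 50/150 the order was Neuro-2a, SH-SY5Y, PC-12 and HEK-293T (1.87, 1.70, 1.66 and 1.34), and each neighbouring pair in that order overlapped in its libraries (unadjusted p = 0.432). The lowest unadjusted p of the window was 0.328, for 7_2186527 allele 2 at 50/150, whose highest value was in HEK-293T. The 3 two-allele fragments present in all lines did not pass a test of their allelic difference between lines (edgeR adjusted p = 1.00; 0 with an unadjusted p under 0.05), where 0% of 514 fragments passed, 1 of 514 had an unadjusted p under 0.05, and DESeq2 and limma-voom called 0. With 2 or 3 RNA libraries in a line these tests do not show that the lines act alike.

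Likeness to the 7_1977810 allele 2 fragment was described by the Pearson correlation of log2 RNA over input (CPM plus 1) across the 11 RNA libraries. The most similar alleles outside the window were allele 1 of rs4660761 at 50/150 (r of 0.897), allele 2 of a chromosome 3 SNP at 31997390 at 100/100 (0.865) and allele 2 of a chromosome 19 SNP at 32653820 at 100/100 (0.863). By GRCh38.p14 positions the latter 2 would lie inside OSBPL10 and ZNF860 and inside ANKRD27. Among the MAD1L1 alleles, r ran from 0.62 for 7_1981360 allele 1 at 50/150, the nearest active fragment, down to -0.78 for 7_2186527 allele 2 at 150/50. The median over 1435 alleles was 0.086. All points share libraries and depth, so these are descriptions and the named alleles are the top of a ranking.

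Other genes of the spindle checkpoint and kinetochore were hardly represented among the SNPs named by position, taken as GRCh38 positions. SNPs named by rs number were not placed. Of 27 listed genes, among them MAD2L1, BUB1, TTK and NDC80, none contained a placed SNP. On chromosome 1, 2 SNPs (163708219 and 163793926) had NUF2, a subunit of the NDC80 complex that binds microtubules, as the nearest gene at 352 and 438 kb. By edgeR, 1 of their 11 tested alleles passed above and 1 below the input in Neuro-2a (4.08% and 1.7% of all alleles), 0 and 2 of 10 in SH-SY5Y (7.43% and 5.51%), 0 and 1 of 10 in HEK-293T (1.35% and 1.02%), and 1 and 2 of 9 in PC-12 (5.64% and 4.77%).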

How the data were processed

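The authors deposited 1 table of raw, unnormalised counts for each cell line, in which, per the file headers, every allele of a fragment has a column for each library. Per the labels' protocols, polyadenylated RNA was reverse-transcribed, amplified in 2 rounds of PCR and sequenced paired-end, and replicates were biological. The submitters' processing notes name limma 3.40.6, while the sources used here do not give the aligner, counter or genome build. Each line's whole table was fitted with edgeR 4.0.16 (TMM scaling, glmQLFit and glmQLFTest, two-sided; R 4.3.3), with a minimum mean count of 10 and Benjamini-Hochberg adjusted p of 0.05 over all features tested. Allelic and placement effects were interactions with RNA over input. DESeq2 1.42.0, limma 3.58.1 (voom), other scalings, minimum counts of 0 and 50, the replicate number as a block, counts of 0 as missing, and leaving out each library were alternatives. The fits with RNA counts of 0 as missing used limma on log counts in place of edgeR. Fits were tested on counts simulated with the same small spread in all libraries. That does not show how they behave with the larger spread of these RNA libraries. Alleles named in full were those of 7_1977810, those passing a test, the highest and lowest per line, and the largest allelic and placement differences. Members and lists were chosen with earlier results of these data known. No sequences are shown.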

Additional observations from a re-analysis of the deposited data

How the results depend on the processing

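DESeq2 called 5 MAD1L1 alleles for activity in each of SH-SY5Y, HEK-293T and PC-12 (30.9%, 23.6% and 40.3% of all alleles), 1 allelic effect in Neuro-2a (12.7% of all) and 2 in PC-12 (10.7%), and 1 placement pair in Neuro-2a (17.5%) and 1 in PC-12 (34.7%). With the replicate number as a block, activity calls of MAD1L1 alleles fell to 0 in each line. The share of all alleles called with the block was not recorded, so this fall cannot be set against the whole library. The numbers were not taken to pair the samples. Within a line, input and RNA libraries of the same number correlated in their deviations at r of -0.058 to 0.106. Same-numbered RNA libraries of different lines correlated at r of 0.32 to 0.45 for replicate 1 (6 pairs), 0.10 to 0.14 for replicate 2 (3 pairs) and 0.042 to 0.23 for replicate 3 (6 pairs), not all over 0.1. Replicate 1 with 2 or 3 gave -0.40 to -0.12 (21 pairs), in part because the deviations within a line sum to 0. In all, 7 of 11 libraries correlated best with their own number. With RNA counts of 0 as missing, limma called 4 alleles for activity in PC-12 (23.6% of all) and 1 allelic effect in each of Neuro-2a, HEK-293T and PC-12 (9.36%, 0.99% and 1.57% of all), the last resting on 1 RNA library of allele 1. Activity of 7_1990232 allele 2 at 150/50 changed sign with the block (-0.087 in SH-SY5Y, -0.19 in PC-12) and with limma-voom in PC-12 (-0.13). It also did so with 0 as missing (-0.076 in SH-SY5Y, -0.20 in PC-12), although this allele had no RNA count of 0 in either line. That setting also changes the fit from edgeR to limma on log counts. The difference of 7_2186527 allele 2 at 150/50 over 100/100 changed sign in PC-12 with limma-voom (0.12). The cause of these changes was not tested. Leaving out 1 library at a time gave 0 to 5 activity calls in Neuro-2a, 0 to 9 in SH-SY5Y, 0 to 5 in HEK-293T and 0 to 15 in PC-12 (14 without RNA replicate 3), 0 to 4, 0 to 4, 0 to 3 and 0 to 8 placement calls, and 0 to 1, 0 to 1, 0 to 0 and 0 to 4 allelic calls. The allelic maxima came without RNA replicate 1, where 30.5% of all fragments were called in Neuro-2a and 46.9% in SH-SY5Y. HEK-293T then had 0 MAD1L1 fragments called, against 20.8% of all fragments. The PC-12 maxima rest on 1 RNA library, and most of the whole library was called with them. No call between lines was made by leaving out a library. Leaving out a library changed the sign of 23 of 59 activities, 5 of 15 allelic and 16 of 36 placement differences of the window, among them 7_1990232 allele 1 at 150/50 (-0.27 to 0.59 in Neuro-2a, -0.64 to 0.24 in HEK-293T, -0.54 to 1.19 in PC-12), its allele 2 at 150/50 (-0.54 to 0.38 in SH-SY5Y, -1.82 to 1.41 in PC-12) and allele 1 at 50/150 (-0.021 to 0.17 in SH-SY5Y), the allelic difference at 50/150 of 7_1990232 (-0.33 to 0.63 in Neuro-2a), 7_2186527 allele 2 at 100/100 (-0.35 to 0.88 in PC-12), and in PC-12 the placement differences of 7_2186527 allele 2, 150/50 over 100/100 (-2.44 to 1.04) and over 50/150 (-2.57 to 0.30). DESeq2 size factors and minimum counts of 0 and 50 moved no count of calls by over 1.5 times. RNA counts of 0, in 3 of 162 values, leave a limit in place of a ratio.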
